A study of Mus musculus with 11 samples.

Results

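The genes described here are 46 mouse genes of DNA replication and of the passage from G1 into S phase, read from 11 single-colour Illumina bead arrays. They were taken by symbol from a list chosen with earlier results of these data known, and grouped by step. The steps were origin licensing, helicase activation, the replication fork, dNTP supply, chromatin assembly behind the fork, and the E2F and cyclin E switch. In the platform annotation 90 probes carried these symbols, and 43 of the 46 genes had a probe that was detected on at least 2 arrays. Pola1, Pole2 and Dna2 had none and are not described further. All arrays came from mouse embryonic fibroblasts that are p53-/- and TSC2-/-, so every group shares both losses and no group has intact TSC2. The cells received siRNA against luciferase, the control, or against Crebl2, and then 12 h of 20 nM rapamycin or of ethanol, its vehicle. Luciferase siRNA was read on 2 arrays in ethanol and 3 in rapamycin, and Crebl2 siRNA on 3 arrays in each. The sources used here do not say whether the replicates were separate cultures or whether the line is 1 clone, so the spread behind each p-value may be technical.

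TSC2 is part of the complex that holds back mTORC1, the kinase complex that drives cell growth and that rapamycin inhibits. In G1 the origin recognition complex, Cdc6 and Cdt1 load the Mcm helicase onto DNA, which licenses an origin, and geminin (Gmnn) blocks Cdt1 once S phase has begun. Cdc45 and the GINS complex then turn the Mcm ring into an active helicase, and the clamp loader, the clamp Pcna and the polymerases copy the strands. Many of these genes are targets of the E2F transcription factors, which are released when cyclin-dependent kinases act on the retinoblastoma protein. They are therefore high in cycling cells and low in resting ones.

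Levels are given as log2 intensity after background correction, and a change is the difference between group means on that scale, with the standard error (SE) from a limma fit across all 15908 genes tested. A change passed at a Benjamini-Hochberg adjusted p under 0.05 over all these genes. Between 46.9% and 51.2% of probes were detected on an array, and precision is limited by how few arrays each group has. Of the fibroblast markers 11 of 12 were kept, among them Col1a1, Col1a2 and Vim. Of the other cell types' markers, 4 of 7 macrophage, 6 of 7 endothelial, 4 of 5 epithelial and 3 of 5 muscle genes were also kept, and Ptprc, Adgre1, Lyz2, Emcn, Epcam, Myod1 and Ckm were not. The kept epithelial markers summed to between 2105 and 4845 on an array, and each of the macrophage, endothelial and muscle lists to between 149 and 320, against at least 38558 for the fibroblast list. Crebl2 itself lay close to background, at 5.42 and 5.44 with luciferase siRNA in ethanol and at 5.52, 4.58 and 4.29 with Crebl2 siRNA in ethanol. With rapamycin it was at 4.80, 5.91 and 5.88 with luciferase siRNA and at 4.59, 4.93 and 4.39 with Crebl2 siRNA. Replicate 1 of Crebl2 siRNA in ethanol thus lay above both control arrays, and the difference in ethanol did not pass (-0.38 ± 0.40 SE, adjusted p = 0.642). Transcript of Tsc2 was read in every group, between 8.95 and 10.18, and the deleted part of the gene is not given in the sources used here.

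The arrays did not all lie together. Of the Crebl2 siRNA arrays, all 3 in rapamycin and replicate 3 in ethanol stood apart from the other 7, along a first principal component that held 67.7% of the variance. Correlations of log2 levels across genes were 0.985 to 0.990 within these 4 arrays, 0.979 to 0.991 within the 7, and 0.921 to 0.940 between them. The labels name no batch. The fit therefore carried a shift term for the 4 arrays. With it, the effect of Crebl2 siRNA in ethanol rests on replicates 1 and 2, and rapamycin with Crebl2 siRNA is 3 arrays against replicate 3 alone. The comparison of rapamycin with ethanol under luciferase siRNA uses none of the 4 arrays for its means.

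Rapamycin lowered much of the replication programme in cells with luciferase siRNA. Of the 43 genes measured, 23 fell and 1, Rrm1, rose, while over all genes tested 6.83% fell and 8.21% rose. The change lay below 0 for 42 of the 43, with a median of -0.58 against 0.04 over all genes. All rapamycin arrays were lower than both ethanol arrays for 33 of the 43 genes, and for 20% of all genes tested. The reverse, all rapamycin arrays higher, held for 1 of the 43 and for 24.9% of all genes. These are levels in bulk RNA, in which fewer cells in S phase and less transcript per cell cannot be told apart. The summed level of the 11 kept fibroblast markers was 38558 to 39992 with ethanol and 48705 to 50728 with rapamycin. Of these markers Col3a1 (0.75 ± 0.15 SE, adjusted p = 0.0112), S100a4 and Fn1 rose and none fell, and their part in the lower replication genes was not tested. Among the kept markers of other cell types, the epithelial keratin gene Krt18 rose (0.80 ± 0.13 SE) and none fell. The count of 24 genes that passed was 10, all lower, in the fit without the shift term, where 2.99% of all genes fell. It was 12 without replicate 1 of luciferase siRNA with ethanol and 9 without replicate 2. Cdt1, Cdc45, Mcm10, Recql4, Chaf1b and Mybl2 passed in all 23 alternative settings.

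**Figure D1:**
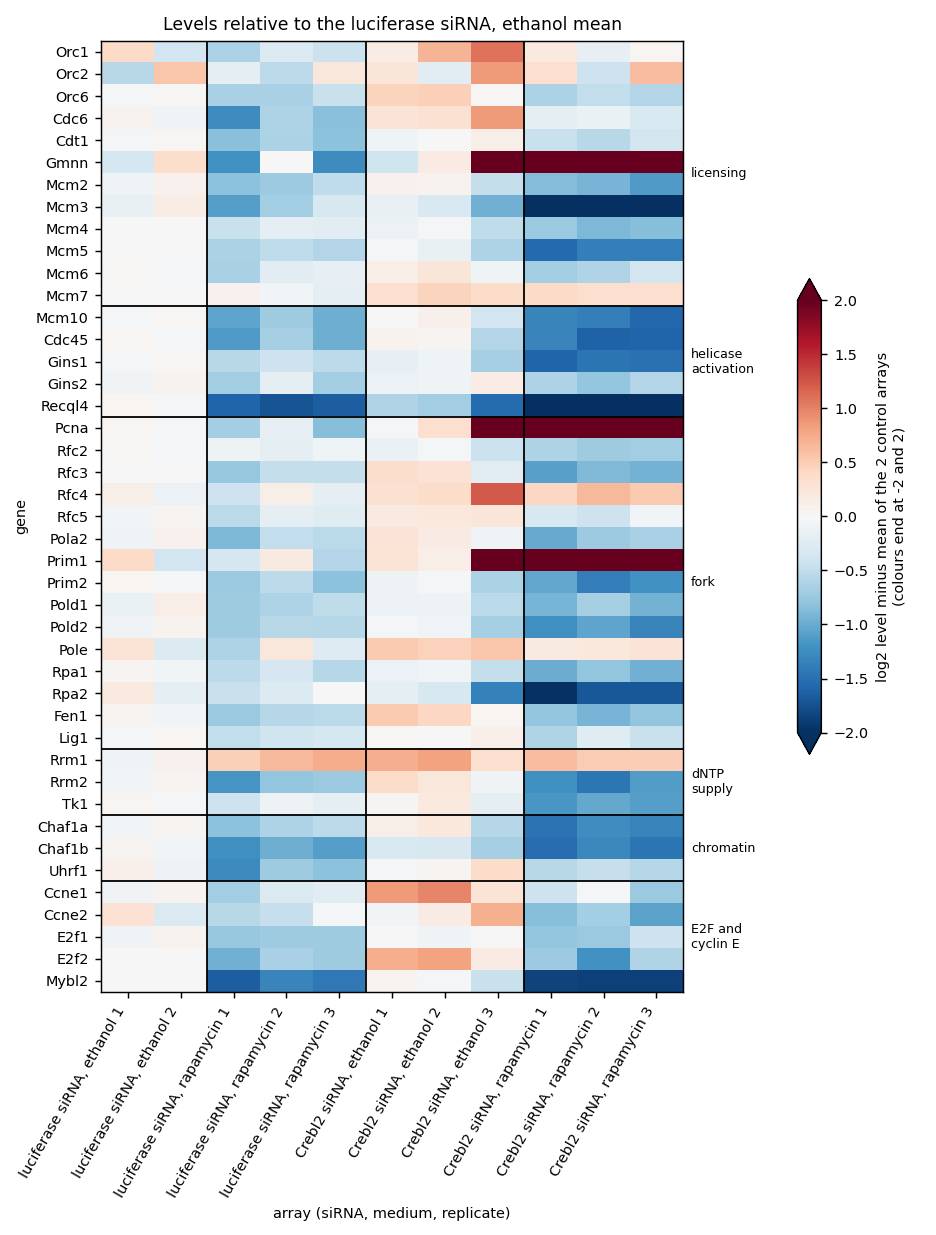
Each row is a gene, ordered by step, and each column an array. Colour gives the log2 level minus the mean of the 2 arrays of luciferase siRNA with ethanol, and ends at -2 and 2. Most rows turn blue in both rapamycin groups, while Rrm1 is red there, and Gmnn, Pcna and Prim1 are dark red on the 4 arrays that stood apart.

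Among the licensing genes 5 of 12 fell with rapamycin under luciferase siRNA: Cdc6, Cdt1, Mcm2, Mcm5 and Orc6. Cdt1, which brings the Mcm ring to the origin, was at 11.77 and 11.85 with ethanol and at 10.97, 11.18 and 10.98 with rapamycin. All rapamycin arrays lay below both ethanol arrays, and the change was -0.76 ± 0.12 (SE, adjusted p = 0.00382). Cdc6, the ATPase that works with Cdt1, was at 9.02 and 8.87 with ethanol and at 7.69, 8.33 and 8.11 with rapamycin. It fell by 0.90 ± 0.18 (SE, adjusted p = 0.01) with no overlap of the arrays. The 2 other kept probes of Cdc6, both near background, changed by 0.02 and 0.47 and passed nothing.

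Of the subunits of the Mcm ring, Mcm2 and Mcm5 passed. Mcm2 was at 10.55 and 10.71 with ethanol and at 9.81, 9.91 and 10.12 with rapamycin, a change of -0.69 ± 0.14 (SE, adjusted p = 0.0107). Mcm5 changed by -0.58 ± 0.11 (SE, adjusted p = 0.00945). For the other subunits the changes were -0.70 ± 0.21 for Mcm3 (adjusted p = 0.0526), -0.29 ± 0.12 for Mcm4, -0.35 ± 0.17 for Mcm6 and -0.05 ± 0.12 (all SE) for Mcm7, and none of the 4 passed. Whether the subunits differed from each other was not tested. Of the origin recognition subunits, Orc6 fell by 0.58 ± 0.11 (SE, adjusted p = 0.0101), while the changes of Orc1 (-0.44 ± 0.24) and Orc2 (-0.16 ± 0.39, both SE) did not pass. Both were low, between 4.74 and 6.78 over the 11 arrays, and spread widely between replicates. Gmnn, the inhibitor of Cdt1, was at 5.44 and 6.14 with ethanol and at 4.58, 5.79 and 4.54 with rapamycin, and the groups overlapped (-0.82 ± 0.37 SE, adjusted p = 0.186).

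Promoters of licensing genes are a classical place of E2F sites, and the sequences below show where such letters stand in genes that fell, that did not pass and that rose. The windows are 300 bases long, from 250 before to 50 after the start of the gene, as RefSeq gives them on GRCm38.p6, written 5′ to 3′ on the strand of the gene. The search took 4 spellings of the E2F element, TTTGGCGC, TTTCGCGC, TTTCCCGC and TTTGCCGC, on both strands, and capitals mark each match. In Mcm5 and in Mcm6, matches on opposite strands overlap and are printed as 1 run. The windows are chr8:75109259-75109558 for Mcm5, chr11:98907901-98908200 for Cdc6 and chr8:122567765-122568064 for Cdt1, all on the plus strand. Mcm6 is at chr1:128359656-128359955 on the minus strand, Rrm1 at chr7:102441445-102441744 and Mybl2 at chr2:163054385-163054684, both on the plus strand.
Mcm5: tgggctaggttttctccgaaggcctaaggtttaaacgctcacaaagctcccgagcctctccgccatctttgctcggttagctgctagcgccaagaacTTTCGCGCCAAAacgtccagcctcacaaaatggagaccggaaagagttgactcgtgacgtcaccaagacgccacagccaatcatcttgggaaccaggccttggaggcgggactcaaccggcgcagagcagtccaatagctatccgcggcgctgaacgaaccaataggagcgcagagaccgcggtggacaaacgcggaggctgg
Cdc6: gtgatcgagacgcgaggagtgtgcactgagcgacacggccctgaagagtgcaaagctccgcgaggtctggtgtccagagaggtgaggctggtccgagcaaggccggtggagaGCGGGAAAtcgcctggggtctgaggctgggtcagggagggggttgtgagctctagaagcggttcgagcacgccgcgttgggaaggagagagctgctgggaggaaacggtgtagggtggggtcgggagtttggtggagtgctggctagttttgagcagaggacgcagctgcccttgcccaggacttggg
Cdt1: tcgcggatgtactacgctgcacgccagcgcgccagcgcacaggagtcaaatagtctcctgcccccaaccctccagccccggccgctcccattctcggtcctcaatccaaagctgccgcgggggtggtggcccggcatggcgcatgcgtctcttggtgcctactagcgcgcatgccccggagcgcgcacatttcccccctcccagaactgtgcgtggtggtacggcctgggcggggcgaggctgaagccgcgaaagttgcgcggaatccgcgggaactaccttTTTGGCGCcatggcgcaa
Mcm6: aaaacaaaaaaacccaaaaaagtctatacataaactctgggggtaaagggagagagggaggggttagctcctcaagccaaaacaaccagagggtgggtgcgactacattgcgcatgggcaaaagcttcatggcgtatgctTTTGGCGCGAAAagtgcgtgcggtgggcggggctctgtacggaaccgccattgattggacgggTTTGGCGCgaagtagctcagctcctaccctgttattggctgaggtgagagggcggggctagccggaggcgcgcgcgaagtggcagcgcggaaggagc
Rrm1: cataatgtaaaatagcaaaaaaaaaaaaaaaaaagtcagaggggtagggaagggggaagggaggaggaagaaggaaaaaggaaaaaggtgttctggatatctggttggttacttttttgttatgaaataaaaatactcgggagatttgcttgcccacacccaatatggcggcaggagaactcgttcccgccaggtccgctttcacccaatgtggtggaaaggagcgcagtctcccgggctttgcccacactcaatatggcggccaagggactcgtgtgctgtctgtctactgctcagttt
Mybl2: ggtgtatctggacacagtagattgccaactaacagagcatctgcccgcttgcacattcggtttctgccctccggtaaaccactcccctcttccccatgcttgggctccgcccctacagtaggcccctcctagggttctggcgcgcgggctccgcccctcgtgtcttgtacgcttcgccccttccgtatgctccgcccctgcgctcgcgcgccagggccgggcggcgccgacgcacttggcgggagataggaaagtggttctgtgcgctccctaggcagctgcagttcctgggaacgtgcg

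Of the 46 genes 37 had an entry in the RefSeq promoter table, and 14 of these (37.8%) held an E2F spelling, against 2.61% of all 27018 genes in the table. The share was nearly the same on both sides of the rapamycin call: 7 of the 20 genes with an entry that fell (35%) and 5 of the 14 measured genes with an entry that did not fall (35.7%). Cdt1, Cdc6 and Mcm5 fell and hold matches that begin at 32, -138 and -153 relative to the gene start. Mcm6 holds 3 matches, beginning at -110, -106 and -47, and did not pass. Mybl2, which fell more than any of these, and Rrm1, which rose, hold none of the 4 spellings in their windows. Only exact spellings were searched, so an E2F site with any other letters is missed, in these windows and in the shares above. The letters CCAAT, searched on both strands, were in 59.5% of the 37 genes and in 41.1% of all genes. The letters TTTGAA of the cell cycle homology region were in 13.5% and 20.2%. All 5 genes with these letters are among the 20 that fell (25%), and 0 of the 14 that did not fall hold them, a split that was not tested. Some promoters of the 37 genes come from a gene with several starts, and a gene counts once if any of its windows holds the letters. A match is a description of the sequence and no measure of binding.

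In helicase activation 4 of 5 genes fell. Recql4, a helicase that helps to assemble the active helicase complex, had the largest change of all 43 genes. It was at 9.22 and 9.14 with ethanol and at 7.58, 7.45 and 7.53 with rapamycin, a change of -1.66 ± 0.11 (SE, adjusted p = 0.000113). All rapamycin arrays lay more than 1 log2 unit below the ethanol arrays. Its other kept probes changed by -2.17, which passed, and by -0.73, which did not. Mcm10, which acts at the start of unwinding, was at 10.45 and 10.49 with ethanol and at 9.42, 9.75 and 9.49 with rapamycin (-0.92 ± 0.14 SE, adjusted p = 0.00310). Cdc45, a subunit of the active helicase, was at 10.10 and 10.01 and then at 8.92, 9.39 and 9.07 (-0.93 ± 0.16 SE, adjusted p = 0.00561). For both genes the rapamycin arrays lay below the ethanol arrays without overlap. Of the GINS subunits, Gins1 fell by 0.50 ± 0.11 (SE, adjusted p = 0.0156) and Gins2 changed by -0.52 ± 0.16 (SE, adjusted p = 0.0637). The second probe of Gins2, also detected on all 11 arrays, changed by -0.71 and passed over all probes (adjusted p = 0.0261). The second probe of Cdc45 changed by -0.51 and did not pass.

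**Figure D2:**
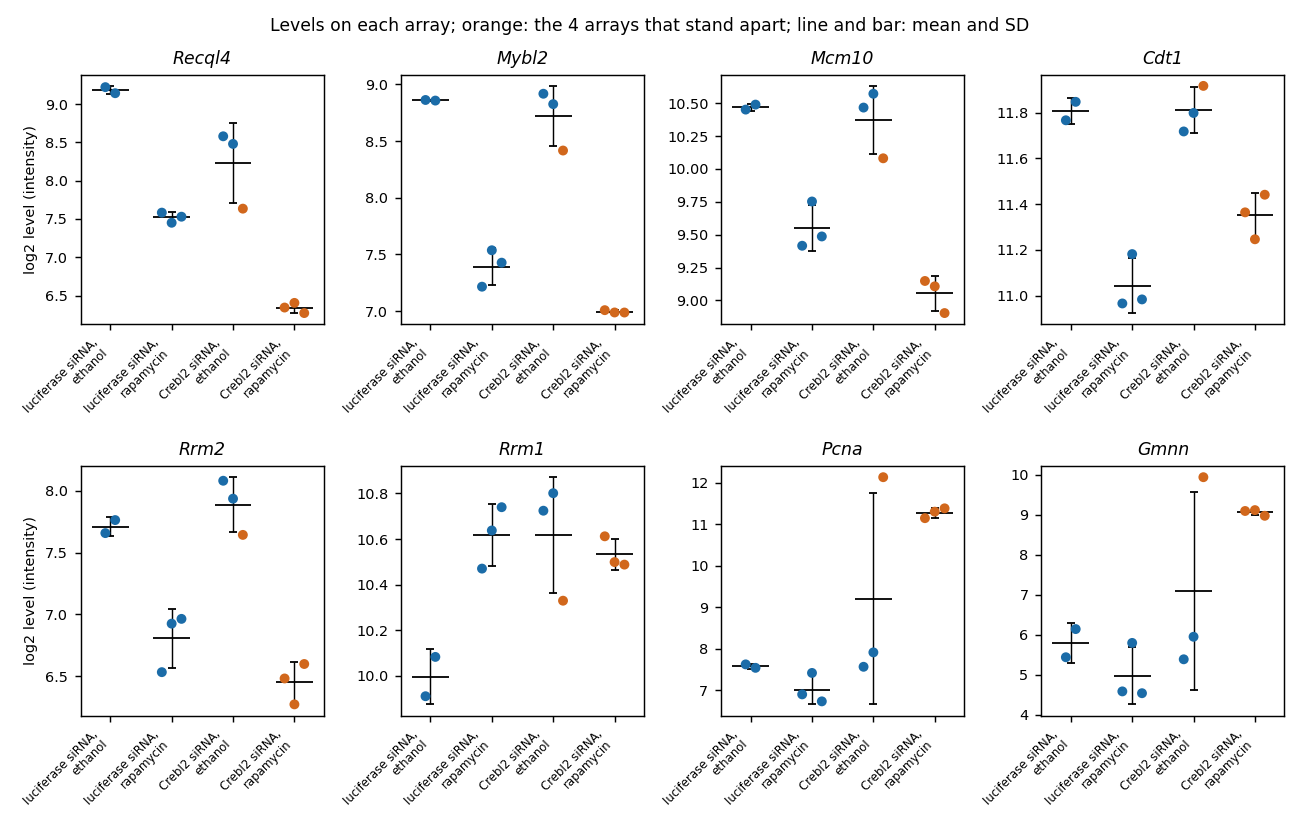
Each point is the log2 level of a gene on 1 array, with the mean and SD of each group of 2 or 3 arrays, and orange marks the 4 arrays that stood apart. Recql4, Mybl2, Mcm10, Cdt1 and Rrm2 are lower in both rapamycin groups, Rrm1 is higher than the control in every other group, and Pcna and Gmnn are high on all orange arrays.

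At the fork 7 of 15 genes fell. Prim2, the large subunit of the primase that starts each new strand, was at 8.91 and 8.83 with ethanol and at 8.12, 8.34 and 8.04 with rapamycin (-0.70 ± 0.14 SE, adjusted p = 0.0112). The arrays did not overlap. Pola2, the regulatory subunit of polymerase alpha, fell by 0.65 ± 0.16, and Pold1 and Pold2, subunits of polymerase delta, each fell by 0.61, with SE of 0.14 and 0.12. Fen1, which trims Okazaki fragments, fell by 0.62 ± 0.12, Rfc3 of the clamp loader by 0.57 ± 0.13 and Rpa1, which coats single strands, by 0.47 ± 0.12 (all SE). Their adjusted p ran from 0.00965 for Fen1 to 0.0296 for Rpa1. The genes that did not pass included the clamp itself. Pcna was at 7.62 and 7.54 with ethanol and at 6.90, 7.41 and 6.73 with rapamycin, without overlap (-0.56 ± 0.20 SE, adjusted p = 0.0961). Lig1, the ligase that joins Okazaki fragments, changed by -0.41 ± 0.13 (SE, adjusted p = 0.0632). Rfc2, Rfc4, Rfc5, Prim1, Pole and Rpa2 changed by between -0.33 and -0.12, with adjusted p from 0.188 to 0.620. A second probe of Rfc4 changed by -0.54 and passed over all probes (adjusted p = 0.0296).

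Ribonucleotide reductase, which makes dNTPs, is built from a large and a small subunit, and their transcripts went opposite ways under luciferase siRNA. Rrm2, the small subunit that is made in S phase, was at 7.66 and 7.76 with ethanol and at 6.53, 6.92 and 6.96 with rapamycin (-0.90 ± 0.16 SE, adjusted p = 0.00672). A second probe of Rrm2 changed by -1.05 and passed, and the remaining one, near background, changed by 0.13. Rrm1, the large subunit, was at 9.91 and 10.08 with ethanol and at 10.47, 10.64 and 10.74 with rapamycin. It was the single gene of the 43 whose rapamycin arrays all lay above the ethanol arrays, and its change was 0.62 ± 0.12 (SE, adjusted p = 0.0107). Its other kept probes changed by 0.43 and 0.18 and did not pass. Tk1, the thymidine kinase of the salvage pathway, changed by -0.24 ± 0.13 (SE, adjusted p = 0.259).

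All 3 chromatin genes fell. Chaf1b, a subunit of the assembly factor CAF-1 that places histones behind the fork, was at 11.61 and 11.51 with ethanol and at 10.33, 10.58 and 10.45 with rapamycin (-1.11 ± 0.12 SE, adjusted p = 0.000862). Its partner Chaf1a was at 10.08 and 10.19 and then at 9.32, 9.52 and 9.61 (-0.65 ± 0.13 SE, adjusted p = 0.0107). Uhrf1, which guides maintenance methylation to new DNA, was at 11.83 and 11.61 and then at 10.44, 11.01 and 10.89 (-0.94 ± 0.17 SE, adjusted p = 0.00742). In each of the 3 genes the lowest ethanol array lay above the highest rapamycin array.

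Of the 5 genes of the E2F and cyclin E switch 3 fell. Mybl2, an E2F target and a transcription factor of the S and G2 phases, was at 8.86 on both ethanol arrays and at 7.22, 7.54 and 7.43 with rapamycin, a change of -1.47 ± 0.12 (SE, adjusted p = 0.000291). A second probe of Mybl2 changed by -1.10 and passed, and the remaining one, near background, changed by 0.22. E2f1 was at 10.00 and 10.15 with ethanol and at 9.32, 9.37 and 9.36 with rapamycin (-0.73 ± 0.14 SE, adjusted p = 0.00813). E2f2 was at 7.81 and 7.79 and then at 6.83, 7.14 and 7.09 (-0.78 ± 0.18 SE, adjusted p = 0.0222). Both are activators of the programme, and neither had overlapping arrays. The 3 other kept probes of E2f2 changed by -0.79, -0.50 and -0.02 and did not pass. The cyclins did not pass: Ccne1 changed by -0.39 ± 0.22 (SE, adjusted p = 0.272) and Ccne2 by -0.35 ± 0.22 (SE, adjusted p = 0.333).

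A wider list of 61 replication and G1/S genes outside the 46 had 55 measured, of which 14 fell and 1 rose with rapamycin under luciferase siRNA. Over all genes 6.83% fell and 8.21% rose. The median change was -0.18, against 0.04 over all genes. The largest fall was that of Mtbp (-1.48 ± 0.10 SE, adjusted p = 0.000125), whose product works with treslin when origins fire. Cdc7 and its activator Dbf4, the kinase that triggers the loaded Mcm ring, fell by 0.93 ± 0.17 and 0.88 ± 0.15 (SE). Of the nucleotide genes, the salvage kinase Dck fell by 1.18 ± 0.31 and the thymidylate synthase Tyms by 0.75 ± 0.12 (SE). Tipin, of the fork protection complex, fell by 0.69 ± 0.11, and Donson, a replisome component, by 0.65 ± 0.18 (SE). Pold4, the smallest subunit of polymerase delta, rose by 0.83 ± 0.14 (SE, adjusted p = 0.00614), opposite to Pold1 and Pold2.

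With Crebl2 siRNA, 9 of the 43 genes fell with rapamycin and none rose in the fit with the shift term, while 0.459% of all genes fell and 0.786% rose. The change was below 0 for 42 genes, all but Rrm1, with a median of -0.73 against 0.06 over all genes. By unadjusted p under 0.05, 32 of the 43 passed, against 2616 of all 15908 genes. Within the 4 arrays that stood apart, all 3 rapamycin arrays lay below replicate 3 of ethanol for 41 genes and above it for 1, against 25.6% and 36.3% of all genes. Over all 6 arrays the groups did not overlap, rapamycin lower, for 35 genes and for 13.4% of all genes. The count of falls depended on the setting: it was 27 without the shift term, where 4.2% of all genes fell, and 0 when only these 2 groups were fitted. It lay between 1 and 9 when single arrays were left out. The summed fibroblast markers were at 42552 to 52775 with ethanol and at 54996 to 56619 with rapamycin, and their part was not tested. The adjusted p of each gene below rests on 1 ethanol array, with the spread taken from the other arrays of the fit.

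Ccne2, the cyclin that partners Cdk2 at the G1/S boundary, had the largest change in this fit, from a probe close to background. It was at 5.56, 5.78 and 6.33 with ethanol and at 4.77, 4.94 and 4.54 with rapamycin, without overlap (-1.58 ± 0.28 SE, adjusted p = 0.0382). Replicate 3, the array the fit sets against rapamycin, was the highest of the ethanol arrays. Without the shift term the change of Ccne2 was -1.14, smaller than those of Recql4 (-1.89) and Mybl2 (-1.73). Mybl2 was at 8.92, 8.83 and 8.42 with ethanol and at 7.01, 6.99 and 6.99 with rapamycin (-1.42 ± 0.15 SE, adjusted p = 0.0113). Recql4 was at 8.58, 8.48 and 7.63 and then at 6.34, 6.41 and 6.27 (-1.29 ± 0.14 SE, adjusted p = 0.0113). In both genes replicate 3 of ethanol lay below replicates 1 and 2, and the rapamycin arrays lay below all 3.

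Rrm2 was at 8.08, 7.94 and 7.64 with ethanol and at 6.48, 6.27 and 6.60 with rapamycin (-1.19 ± 0.20 SE, adjusted p = 0.0382). Mcm10 was at 10.47, 10.57 and 10.08 and then at 9.15, 9.11 and 8.90 (-1.03 ± 0.17 SE, adjusted p = 0.0368). Tk1 was at 10.92, 11.06 and 10.69 and then at 9.70, 9.84 and 9.76 (-0.93 ± 0.16 SE, adjusted p = 0.0382). Each of these 3 genes was lower on every rapamycin array than on every ethanol array. The other falls were those of Fen1 (-0.88), Gins1 (-0.86) and Mcm5 (-0.82). With every kept probe as its own feature, only Mybl2 and Recql4 of the genes that fell still passed, each by the probe used here. The other kept probes of the genes that fell changed by between -1.11 and 0.10, and none passed. Rrm1 changed by 0.20 ± 0.16 (SE, adjusted p = 0.583).

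The means of both rapamycin comparisons come from separate arrays. Their calls share 1 estimate of each gene's spread in the fit, so the 2 lists are not independent. In each, 7 genes fell: Mybl2, Recql4, Rrm2, Mcm10, Fen1, Gins1 and Mcm5. These are 30.4% of the luciferase list and 77.8% of the Crebl2 list. Across the 43 genes the changes had a Pearson correlation of 0.676 and a Spearman correlation of 0.590, given as a description, since genes on shared arrays are not independent. Over all genes the Pearson correlation was 0.403. By the probe that stands for it, Mcm7 lay near 0 in both, with -0.05 ± 0.12 and 0.00 ± 0.15 (SE). Its second kept probe, also detected on all 11 arrays, changed by -0.29 and -0.45 and did not pass. The interaction, which tests whether the response differed between the siRNAs, was called for 0 of 43 genes by limma and for 0.00629% of all genes. At an unadjusted p under 0.05 it held for 2 of the 43 and for 1869 of all 15908 genes. The 2 were Ccne2 (-1.22, 95% interval -2.02 to -0.43, adjusted p = 0.230) and Tk1 (-0.69, interval -1.15 to -0.23, adjusted p = 0.247). Without background correction Tk1 passed, at -0.64. The median SE of the interaction was 0.22, against 0.14 and 0.17 for the rapamycin changes themselves, so this test is less precise than either.

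**Figure D3:**
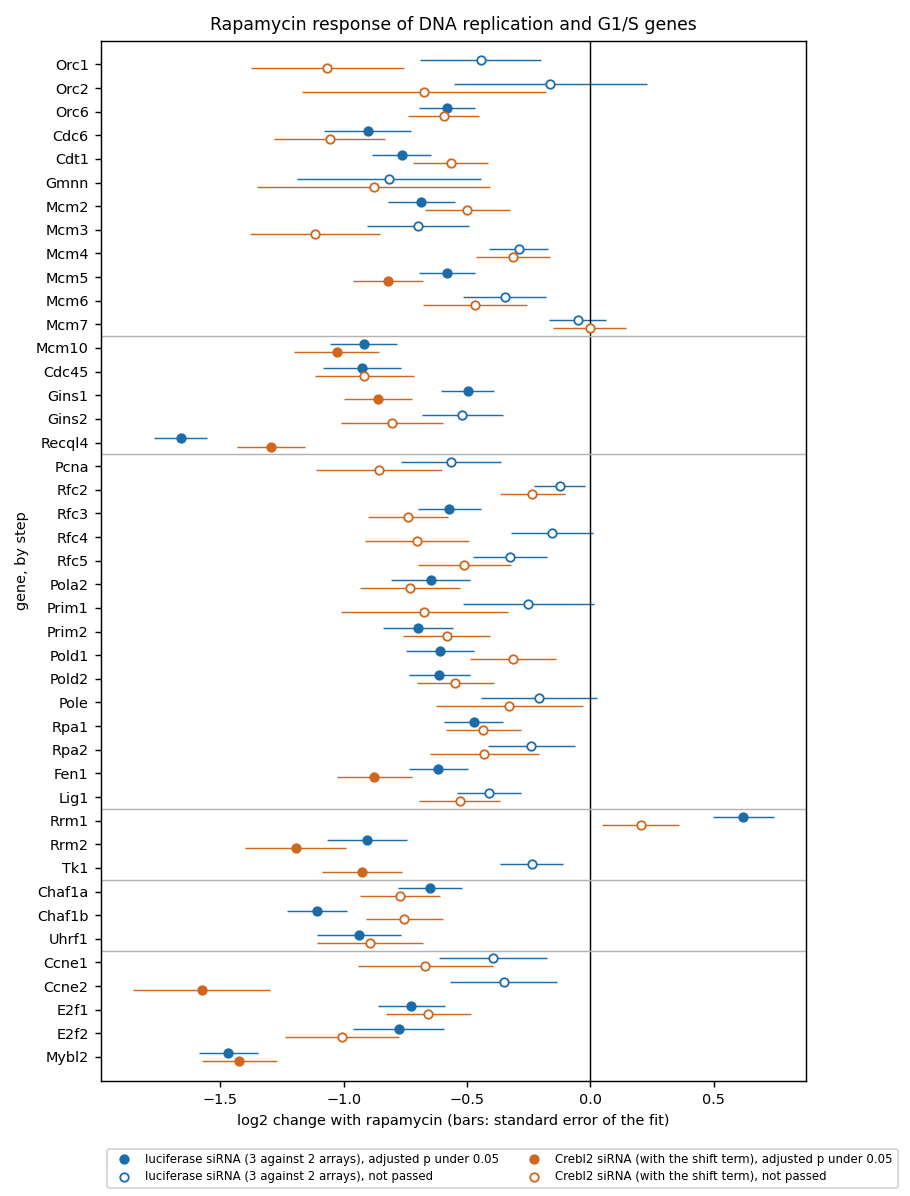
Points give the log2 change with rapamycin for each of the 43 genes, by step, under luciferase siRNA (blue) and Crebl2 siRNA (orange), with the SE of the fit. Filled points passed an adjusted p under 0.05. Nearly all points lie left of 0, with Recql4, Mybl2 and Ccne2 furthest left and Rrm1 to the right.

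Few of these genes passed for Crebl2 siRNA in ethanol. By unadjusted p under 0.05, 9 of the 43 did, against 3568 of all 15908 genes. The median change was 0.06, with 27 above and 16 below 0, and 1 gene rose and 1 fell, against 2.19% and 4.17% of all genes. This comparison uses the same luciferase control arrays as the rapamycin comparison above. Rrm1 was at 9.91 and 10.08 in the control and at 10.72, 10.80 and 10.33 with Crebl2 siRNA, all above the control (0.77 ± 0.13 SE, adjusted p = 0.0146). Recql4 was at 9.22 and 9.14 and then at 8.58, 8.48 and 7.63, all below it (-0.65 ± 0.12 SE, adjusted p = 0.0164). Replicate 3, the lowest for both genes, does not enter these changes, which rest on replicates 1 and 2. A second probe of Rrm1 changed by 0.84 and passed over all probes (adjusted p = 0.0291). The remaining one, near background, changed by 0.33 and did not pass. The 2 other kept probes of Recql4 changed by -0.58 and -0.67 and did not pass.

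Ccne1 (0.92 ± 0.24 SE, adjusted p = 0.0537) and E2f2 (0.76 ± 0.20 SE, adjusted p = 0.0573) did not pass, although the change of Ccne1 was the largest of the 43 genes and that of E2f2 was close to that of Rrm1. Both passed after quantile normalization, where 4 genes were called. Without replicate 3, 17 genes had both Crebl2 siRNA arrays above both control arrays and 9 had both below, while 25.4% and 30.2% of all genes did so. Neither Rrm1 nor Recql4 passed without the shift term, where 3.57% of all genes fell and 0.987% rose. The count was also 0 when only these 2 groups were fitted, without either control array and without replicate 1 or 2 of Crebl2 siRNA.

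In rapamycin, Crebl2 siRNA against luciferase siRNA gave 0 calls by limma with the shift term, where 0.0503% of all genes were called. An unadjusted p under 0.05 was reached by 5 of the 43 genes and by 2039 of all 15908. Without the shift term 17 genes were called, 5 higher and 12 lower, against 11.5% and 17.7% of all genes. Among the higher ones were Pcna (4.26), Gmnn (4.09) and Prim1 (3.48). All arrays of Crebl2 siRNA with rapamycin stood apart, and those of luciferase siRNA with rapamycin did not, so beyond what replicate 3 in ethanol provides, the siRNA and what set the arrays apart cannot be told apart.

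The shift of the 4 arrays reached genes of this group about as often as genes in general. By the shift term 4 of the 43 genes were higher and 7 lower, against 10.1% and 11.5% of all genes. The size of each shift comes from replicate 3 against replicates 1 and 2 of Crebl2 siRNA in ethanol, with the spread taken from the whole fit. Of the 4 arrays, those in rapamycin have their own group mean and do not set it. Pcna was between 6.73 and 7.91 on the other 7 arrays and at 12.13, 11.14, 11.30 and 11.38 on these 4 (shift 4.39 ± 0.27 SE, adjusted p = 5.48e-06). Gmnn was between 4.54 and 6.14 on the 7 and between 8.97 and 9.94 on the 4 (shift 4.27 ± 0.50 SE, adjusted p = 0.000323). Prim1 was between 4.47 and 5.44 and between 8.06 and 8.96 (shift 3.69 ± 0.36 SE, adjusted p = 8.98e-05). For all 3 the 4 arrays lay above every other array.

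Among the smaller shifts, Rfc4 was between 9.34 and 10.13 on the 7 arrays and between 10.17 and 10.99 on the 4 (0.90 ± 0.22 SE). Rpa2 was between 8.13 and 8.76 on the 7 and between 6.59 and 7.21 on the 4 (-1.10 ± 0.23 SE). The shift of Recql4 was -0.89 ± 0.14 (SE). For some genes the estimates of the kept probes had opposite signs. The 4 kept probes of Mcm6 shifted by 5.75, 1.99, -0.49 and -0.26, and the 2 of Cdc45 by 4.02 and -0.65. The probe that stands for Rpa2 shifted by -1.10 and its 2 others by 2.00 and 1.58. For Prim2 the values were -0.56 and 1.04. Of these genes only Rpa2 had shifts that passed in both directions, and the negative shifts of Mcm6, Cdc45 and Prim2 did not pass. Over the whole array 606 probes were detected on each of the 4 and on no other array, and 7 probes showed the reverse. The cause of the shift was not tested.

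**Figure D4:**
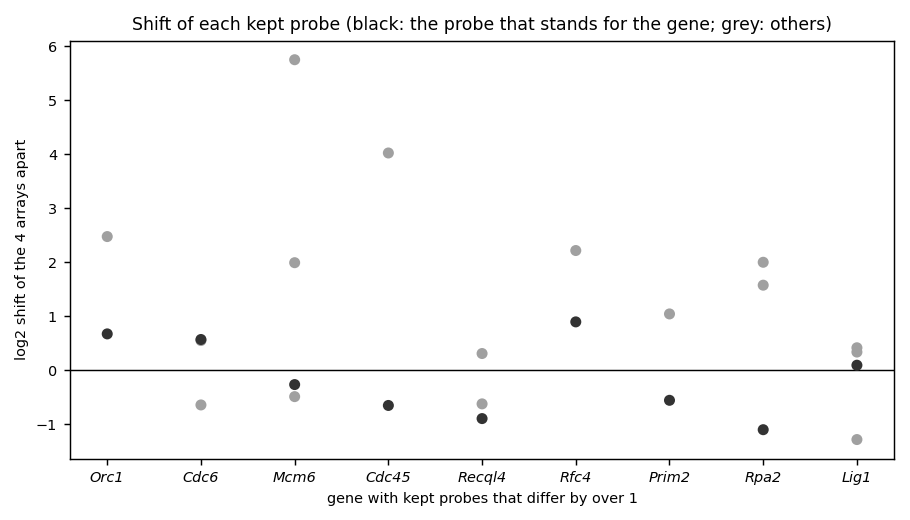
Each point is the log2 shift of 1 kept probe on the 4 arrays that stood apart, for the 9 genes whose kept probes differ by more than 1. Black marks the probe that stands for the gene and grey its other probes. Cdc6, Mcm6, Cdc45, Recql4, Prim2, Rpa2 and Lig1 have probes on both sides of 0, and Orc1 and Rfc4 do not.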

How the data were processed

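Single-colour bead arrays of 11 samples were grouped by the submitters' labels. Per the labels, 500 ng of total RNA was amplified and biotin labelled. The authors' deposited normalized table holds linear intensity values with a detection p-value for each probe and array. The method of their normalization is not given in the sources used here. The series matrix repeats these values. The identifiers of the deposited non-normalized table did not belong to its values, which entered, matched by rank, in 1 alternative (neqc). The labels give 3 days of siRNA against Crebl2, while the design text gives 2.5 days and writes Creb2.

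The authors' normalized intensity values were background corrected with nec of limma 3.58.1 under R 4.3.3 (normexp, parameters inferred from detection p-values, offset 16) and put on a log2 scale. A probe was kept if 2 or more arrays had a detection p under 0.05, which left 28936 of 46237. By the platform annotation 35784 probes had 1 gene symbol, 0 several and 10453 none. The kept probe with the highest mean stood for its gene. All 4 groups and a shift term for the 4 arrays apart entered 1 fit (lmFit, eBayes; 6 residual and 3.20 prior degrees of freedom). On simulated data only the comparison of rapamycin with ethanol under luciferase siRNA was checked. Alternatives were other background, normalization, filter, probe and model settings and leaving out each array. The 46 genes, the wider list, the marker lists, the shift term and the rule for named genes were chosen with earlier results of these data known. By that rule values on every array are given for up to 14 genes by size of change that passed with rapamycin under luciferase siRNA, for up to 6 in each other comparison, and for a gene opposite to its step. Those of Gmnn and Pcna under luciferase siRNA were added because both passed in the shift. From the wider list up to 8 are named. The p53 gene was not analysed here. Figures were drawn with matplotlib 3.10.9 under Python 3.11.15.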

Additional observations from a re-analysis of the deposited data

How the results depend on the processing

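No called value changed direction. The count of 24 genes called for rapamycin with luciferase siRNA was 10 without the shift term, and over the fits that leave out 1 array it ran from 9 to 27. For rapamycin with Crebl2 siRNA the count of 9 was 33 without background correction, 16 after quantile normalization and with neqc, 14 with median scaling and with the stricter filter (detection p under 0.01 on at least 3 arrays), 27 without the shift term, 0 with only the groups compared, and 1 to 9 without single arrays. For Crebl2 siRNA in ethanol the count of 2 was 7 without background correction, 4 after quantile normalization, with neqc and with the 7 arrays that lay together, 6 with median scaling, the stricter filter and array weights, 1 with the mean of probes, 0 without the shift term and with only the groups compared, and 0 to 4 without single arrays. For Crebl2 siRNA in rapamycin the count of 0 was 17 without the shift term. For the interaction the count of 0 was 1 without background correction and 0 without single arrays.

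Over all genes, rapamycin with luciferase siRNA called 2392 (1306 higher, 1086 lower), and 1018 without the shift term, 1241 with only the groups compared, and 906 to 2392 without single arrays. With median scaling the split was 1044 higher and 1409 lower. Rapamycin with Crebl2 siRNA called 198 (125 higher), and 1137 without background correction, 390 without a filter, 373 with the stricter filter, 126 with the mean of probes, 1162 without the shift term, 0 with only the groups compared and 8 to 122 without single arrays. Its share of higher calls was smaller with median scaling (81 of 177), quantile normalization (101 of 214) and neqc (103 of 218). Crebl2 siRNA in ethanol called 1012 (349 higher), and 2077 without background correction, 636 with the 7 arrays, 0 with only the groups compared, 1641 with array weights and 161 to 1012 without single arrays. With median scaling 587 of 1073 were higher. Crebl2 siRNA in rapamycin called 8, and 444 without background correction, 29 with the stricter filter, 4636 without the shift term, 18 with array weights and 0 to 6 without single arrays. The interaction called 1, and 329 without background correction, 5 with median scaling, 8 with neqc, 19 with the stricter filter, 12 with the mean of probes, 5 without the shift term and 0 to 3 without single arrays.

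The median over the 43 genes for rapamycin with Crebl2 siRNA was -0.59 without background correction and -0.87 without the shift term. For Crebl2 siRNA in rapamycin it was -0.22 without the shift term, -0.01 after quantile normalization and 0.12 with median scaling, and for the interaction -0.26 without the shift term. Without single arrays the medians ran from -0.62 to -0.51 and from -0.77 to -0.68 for rapamycin with luciferase and with Crebl2 siRNA, from 0.05 to 0.11 for Crebl2 siRNA in ethanol, from -0.09 to 0.07 in rapamycin and from -0.26 to -0.09 for the interaction.

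Over 15 pairs of same-numbered arrays the correlation of deviations from the group means lay between -0.08 and 0.08. The shift was not removed from these deviations. In the group of Crebl2 siRNA with ethanol, replicate 3 brings the shift into them. Pairs with that group therefore cannot show whether the arrays deviate together. With the replicate number as a block beside the shift term, the counts were 23, 0, 2, 0 and 0 in the order above, and over all genes 1506, 0, 561, 0 and 0. Where a fit left 1 array in a group, that array was assumed to vary like the others. Comparisons with the Crebl2 siRNA and rapamycin group were not run without replicate 3 of Crebl2 siRNA with ethanol or with the 7 arrays alone, since the shift could then not be separated. Crebl2 siRNA in rapamycin and the interaction were not run with only the groups compared.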

Other observations

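Rrm2b, an alternative small subunit of ribonucleotide reductase, was the single gene of the wider replication list that passed for Crebl2 siRNA in ethanol. It fell by 1.36 ± 0.17 (SE, adjusted p = 0.00505) in the same comparison in which Rrm1 rose. At 1 of 55 genes the list was called no more often than all genes, of which 4.17% fell and 2.19% rose. With rapamycin under Crebl2 siRNA, 3 of the 55 measured genes of that list fell and 1 rose, against 0.459% and 0.786% of all genes. These were Cdc7 (-1.22 ± 0.22 SE), Tipin (-0.78 ± 0.14 SE), Mtbp (-0.70 ± 0.13 SE) and Pold4 (0.98 ± 0.18 SE), with adjusted p from 0.0382 to 0.0441, each in the direction it had under luciferase siRNA.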
